A study of Mus musculus with 8 samples.

Results

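Messenger RNA of 10 genes that bring fatty acids into cells, carry them in the cytosol and activate them was examined in macrophages of mouse epididymal white adipose tissue (eWAT). The genes were Fabp4, Fabp5, Cd36, Scarb1, Msr1, Slc27a1, Slc27a4, Acsl1, Acsl3 and Acsl4. They were picked by symbol for their known roles, with earlier results of these data known. All 10 were found among the 17740 genes listed for mice on a high-fat diet (HFD) and the 16436 listed for mice on a normal diet (ND, chow). The cells were adhesion-related macrophages (ARMs), which stay with the floating adipocytes after collagenase digestion, and stromal vascular fraction macrophages (SMs, titled NARM), which pellet with the other stromal cells. All mice were wild-type (WT) C57BL/6J males whose diets began at 6 weeks of age, and the HFD, with 60% fat, was given for 8 weeks. There were 2 libraries in each of the 4 groups, HFD ARMs, HFD SMs, ND ARMs and ND SMs. A library pooled 6 HFD mice or 10 ND mice, so the spread between libraries is one between pools. ARMs were freed by vortexing the adipocyte layer with beads until the fat cells lysed, and both populations were then sorted by flow cytometry.

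Long-chain fatty acids reach a macrophage as albumin-bound acids, as products of lipoprotein lipase or inside lipoproteins and dying cells. Scavenger receptors such as CD36 bind them or their carriers at the surface, fatty acid transport proteins of the SLC27 family promote their entry, fatty acid binding proteins (FABPs) ferry them through the cytosol, and long-chain acyl-CoA synthetases (ACSLs) couple them to coenzyme A, the form used for oxidation, storage and membrane lipids. In adipose tissue FABP4 is best known as the abundant cytosolic carrier of adipocytes, and it is also made by macrophages and by capillary endothelium.

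Fabp4 and Fabp5 were the members with the largest ARM against SM differences in both diets. They lie close together on chromosome 3 of the mouse genome (GRCm38, the build the labels name as mm10), Fabp4 (Entrez 11770) at chr3:10204088-10208576 on the minus strand and Fabp5 (Entrez 16592) at chr3:10012548-10016607 on the plus strand, and both coding transcripts have 4 exons. Their coding sequences in the GENCODE M21 transcripts are shown because related genes can share reads, which would tie their values together. The lines give the first 240 bases of each, 5′ to 3′ from the start codon, and capitals mark bases that differ from, or have no partner in, the other gene.
Fabp4 coding sequence: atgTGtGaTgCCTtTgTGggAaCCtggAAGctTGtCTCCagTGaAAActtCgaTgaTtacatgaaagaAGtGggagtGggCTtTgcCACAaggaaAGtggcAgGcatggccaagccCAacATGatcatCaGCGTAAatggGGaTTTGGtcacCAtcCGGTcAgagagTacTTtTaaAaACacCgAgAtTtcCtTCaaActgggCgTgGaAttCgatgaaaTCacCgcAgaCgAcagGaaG
Fabp5 coding sequence: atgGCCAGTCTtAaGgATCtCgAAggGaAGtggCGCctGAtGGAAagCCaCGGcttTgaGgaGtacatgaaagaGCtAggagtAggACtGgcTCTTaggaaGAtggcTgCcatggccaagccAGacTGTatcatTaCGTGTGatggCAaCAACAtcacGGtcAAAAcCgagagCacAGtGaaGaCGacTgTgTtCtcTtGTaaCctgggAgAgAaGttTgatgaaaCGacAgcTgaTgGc
The whole coding sequences have 399 and 408 bases, and 60.9% of the 399 aligned positions were identical, with a longest identical run of 12 bases. No stretch of 50 bases of a Fabp4 transcript occurred in a transcript of another gene. For Fabp5, 5.48% of such stretches did, mostly in Gm6166 and Gm14328, and none of them in Fabp4. The deposited counts of both genes were whole numbers in every library.

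Levels were read from FPKM and TPM, which divide reads by gene length and depth and so allow genes to be ranked. In every group Cd36 was the highest of the 10 genes, and its mean TPM ran from 1553 in HFD ARMs to 1783 in ND ARMs. Fabp4 came next in HFD ARMs (mean 824 TPM), HFD SMs (254 TPM) and ND ARMs (351 TPM). In ND SMs, Fabp4 (204 TPM) and Msr1 (204 TPM) overlapped. Acsl3 was lowest in every group, at 9.29 to 12.9 TPM, below Slc27a4 at 15.9 to 18.8 TPM. The order between these ends differed among the groups. Neighbours whose libraries overlapped in TPM were Slc27a1 and Msr1 in HFD SMs, Acsl4 and Slc27a1 and also Acsl1 and Scarb1 in ND ARMs, and Msr1 and Fabp4 and also Slc27a1 and Fabp5 in ND SMs. Fabp4 made up 29.2% of the summed TPM of the 10 genes in HFD ARMs, and 11.2% in the SMs of those mice, and 13.4% and 8.68% in ARMs and SMs of ND mice, while the share of Cd36 was 54.9%, 71.9%, 68.1% and 72.8%, respectively.

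**Figure D1:**
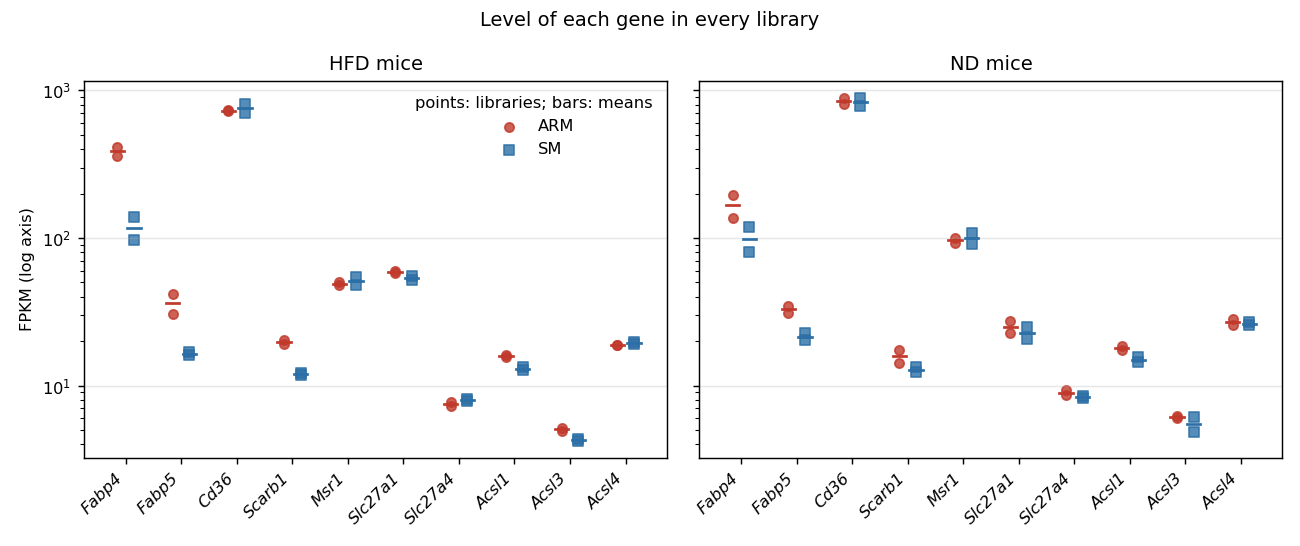
FPKM (log axis) of each of the 10 genes in HFD mice (left) and ND mice (right), with a point for each library (ARMs as circles, SMs as squares) and a bar for the mean of the 2 libraries. Fabp4, Fabp5 and Scarb1 lie higher in both ARM libraries than in both SM libraries in either diet, and Cd36 overlaps in both.

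The first question was which of these genes differ between ARMs and SMs of the same diet. In HFD mice Fabp4, Fabp5 and Scarb1 were higher in ARMs, at 3.22-fold, 2.15-fold and 1.61-fold. In ND mice Fabp4 and Fabp5 were higher, at 1.67-fold and 1.53-fold. No member was lower in ARMs of either diet. Calls needed a fold over 1.5 and an adjusted p under 0.05 in the quasi-likelihood test of edgeR, adjusted by Benjamini-Hochberg over all genes tested. All 10 members passed the filter on low counts in both diets. The 3 calls among 10 members in HFD mice stand beside 4.46% of the 13337 genes tested that were called higher and 0.292% called lower, and the 2 calls in ND mice beside 3.55% of 12441 genes called higher and 0.129% called lower. For HFD mice the study itself named Fabp4, Fabp5 and Scarb1 from these libraries, so neither the count of these calls nor their direction is independent evidence. By PCR on pools of 3 mice, it reported all 3 genes higher in HFD ARMs than in HFD SMs. In ND mice its PCR gave no significant difference between ARMs and SMs for Fabp4, Fabp5, Scarb1 or Cd36. At an unadjusted p under 0.05, 4 members were higher and 0 lower in each diet, beside 13.4% of all genes tested that were higher and 9.75% lower in HFD mice, and 10.2% and 4.75% in ND mice. DESeq2 called 3 members higher in HFD mice and 1 in ND mice and no member lower. No share over all genes is given for DESeq2 here or below, so its counts cannot be set against all genes. The median log2 fold change of the 10 genes was 0.15 in HFD mice and 0.16 in ND mice, against -0.0064 and -0.016 over all genes tested.

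Fabp4 stood at 359 and 414 FPKM in the HFD ARM libraries and at 138 and 97.4 FPKM in the HFD SM libraries. Both ARM libraries were thus far above both SM libraries, and the log2 fold change was 1.69 (standard error 0.13, adjusted p = 5.03e-05). In ND mice the values were 138 and 197 FPKM in ARMs and 79.9 and 118 FPKM in SMs, again without overlap, although the lower ARM library lay only a little above the higher SM library. The ND log2 fold change was 0.74 (standard error 0.17, adjusted p = 0.0208).

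Fabp5, the epidermal-type carrier that macrophages also make, stood at 30.7 and 41.7 FPKM in HFD ARMs and 16.8 and 16.1 FPKM in HFD SMs. The SM libraries were close to each other and the ARM libraries were not, and the log2 fold change was 1.11 (standard error 0.13, adjusted p = 0.000592). ND ARMs had 30.9 and 34.8 FPKM and ND SMs 22.7 and 20.3 FPKM. This difference of 0.61 on the log2 scale (standard error 0.13, adjusted p = 0.0134) was just past the fold threshold.

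The ND calls of both binding proteins rested on single libraries. Without replicate 2 of the ND ARMs, 0 of the 10 members were called by edgeR, with Fabp4 at 0.45 on the log2 scale (adjusted p = 0.41) and Fabp5 at 0.52 (adjusted p = 0.169). Leaving out replicate 1 of the ND SMs ended the call of Fabp4 (0.48, adjusted p = 0.174), and leaving out replicate 2 of the ND SMs ended that of Fabp5 (0.54, adjusted p = 0.0925). Over 14 alternatives the ND adjusted p ran from 3.37e-13 to 0.526 for Fabp4 and from 1.35e-05 to 0.269 for Fabp5. With a library left out, the lone sample of its group was assumed to vary like the pair in the other group. In HFD mice the 3 members called stayed called whichever library was left out.

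Among the receptors, Scarb1 (Entrez 20778, chr5:125277087-125341094, minus strand) encodes SR-B1, which takes up cholesteryl esters from high-density lipoprotein. It was measured at 19.2 and 20.2 FPKM in HFD ARMs and at 11.9 and 12.1 FPKM in HFD SMs, tight pairs that did not overlap, with a log2 fold change of 0.69 (standard error 0.071, adjusted p = 0.000275). ND ARMs had 14.2 and 17.5 FPKM and ND SMs 12.3 and 13.4 FPKM, also without overlap, and the log2 fold change of 0.30 (standard error 0.13, adjusted p = 0.263) did not pass.

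Cd36 (Entrez 12491, chr5:17781690-17888801, minus strand), the main surface receptor for long-chain fatty acids and oxidized low-density lipoprotein, did not pass in either diet. It had 735 and 721 FPKM in HFD ARMs against 811 and 698 FPKM in HFD SMs, and 815 and 886 FPKM in ND ARMs against 779 and 884 FPKM in ND SMs. The groups overlapped in both diets, with log2 fold changes of -0.077 (standard error 0.075) and 0.024 (standard error 0.11). Because Cd36 had at least 33246 counts in every library, counting error adds little to these values. For protein, the study reported by flow cytometry a higher share of CD36-positive cells in HFD ARMs than in HFD SMs. It reported the same for SCARB1 (SR-B1), and no significant difference for either protein in ND mice.

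Msr1 (Entrez 20288, chr8:39581685-39642673, minus strand) encodes the class A scavenger receptor for modified lipoproteins. Its FPKM in HFD mice was 50.3 and 47.7 for ARMs and 54.8 and 48.0 for SMs, and in ND mice 101 and 93.0 for ARMs and 109 and 90.8 for SMs. Again the ARM and SM libraries overlapped in both diets, and the log2 fold changes were -0.093 (standard error 0.074) and -0.066 (standard error 0.11). The ND libraries all lay above the HFD libraries, and those values are set side by side below.

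The transport proteins showed no call. Slc27a1 (Entrez 26457, chr8:71568882-71587302, plus strand), which encodes the insulin-responsive transporter FATP1, had 58.2 and 59.4 FPKM in HFD ARMs, 51.6 and 55.0 FPKM in HFD SMs, 22.8 and 27.2 FPKM in ND ARMs, and 20.6 and 24.9 FPKM in ND SMs. The HFD pairs did not overlap and the ND pairs did, with log2 fold changes of 0.10 (standard error 0.063, adjusted p = 0.376) and 0.14 (standard error 0.12, adjusted p = 0.697). Slc27a4 (Entrez 26569, chr2:29802634-29817522, plus strand), encoding FATP4, had 7.24 and 7.69 FPKM in HFD ARMs, 7.85 and 8.15 FPKM in HFD SMs, 8.58 and 9.31 FPKM in ND ARMs, and 8.46 and 8.18 FPKM in ND SMs. ARM libraries lay below SM libraries in HFD mice and above them in ND mice, by log2 fold changes of -0.13 (standard error 0.076, adjusted p = 0.357) and 0.11 (standard error 0.11, adjusted p = 0.764) that did not pass.

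Of the synthetases, Acsl1 (Entrez 14081, chr8:46471037-46536051, plus strand), the main isoform of adipocytes and of inflammatory macrophages, came nearest to a call. Its FPKM was 16.2 and 15.6 in HFD ARMs against 12.8 and 13.3 in HFD SMs, and 17.5 and 18.5 in ND ARMs against 14.4 and 15.6 in ND SMs. ARM libraries were above SM libraries in both diets, with log2 fold changes of 0.26 (standard error 0.069, adjusted p = 0.039) and 0.27 (standard error 0.10, adjusted p = 0.19). The HFD adjusted p was under 0.05, but the fold of 1.20 was under the threshold of 1.5, and the adjusted p ran from 0.0227 to 0.291 over 14 alternatives. The opposite strand of this locus carries Gm45244, which shares 990 of the 10846 distinct 50-base stretches of the Acsl1 transcripts, and whether counting used the strand is not given in the sources used here.

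Acsl3 (Entrez 74205, chr1:78657825-78707743, plus strand), an isoform of the endoplasmic reticulum and lipid droplets, had 4.92 and 5.18 FPKM in HFD ARMs, 4.22 and 4.37 FPKM in HFD SMs, 6.27 and 6.07 FPKM in ND ARMs, and 4.82 and 6.13 FPKM in ND SMs. The log2 fold changes of 0.20 (standard error 0.090, adjusted p = 0.226) and 0.17 (standard error 0.14, adjusted p = 0.654) did not pass, and the ARM and SM libraries overlapped in ND mice only. Its counts were not whole numbers in any library, and its locus overlaps Utp14b on the same strand, with which it shares 3.59% of its 50-base stretches. Acsl4 (Entrez 50790, chrX:142317993-142390535, minus strand), which prefers arachidonic acid, had 18.8 and 18.7 FPKM in HFD ARMs, 19.7 and 19.03 FPKM in HFD SMs, 28.1 and 25.9 FPKM in ND ARMs, and 25.7 and 26.9 FPKM in ND SMs. Its log2 fold changes were -0.067 (standard error 0.063) and 0.038 (standard error 0.095), and neither passed.

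By position alone, both ARM libraries lay above both SM libraries in FPKM for 6 members in HFD mice and 5 in ND mice, and below them for 2 and 0. Over all genes tested these shares were 29.2% above and 21.3% below in HFD mice, and 20.9% above and 22.4% below in ND mice. The 7 members not called in HFD mice had folds from 0.915 to 1.20, and the 8 not called in ND mice had folds from 0.955 to 1.23.

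**Figure D2:**
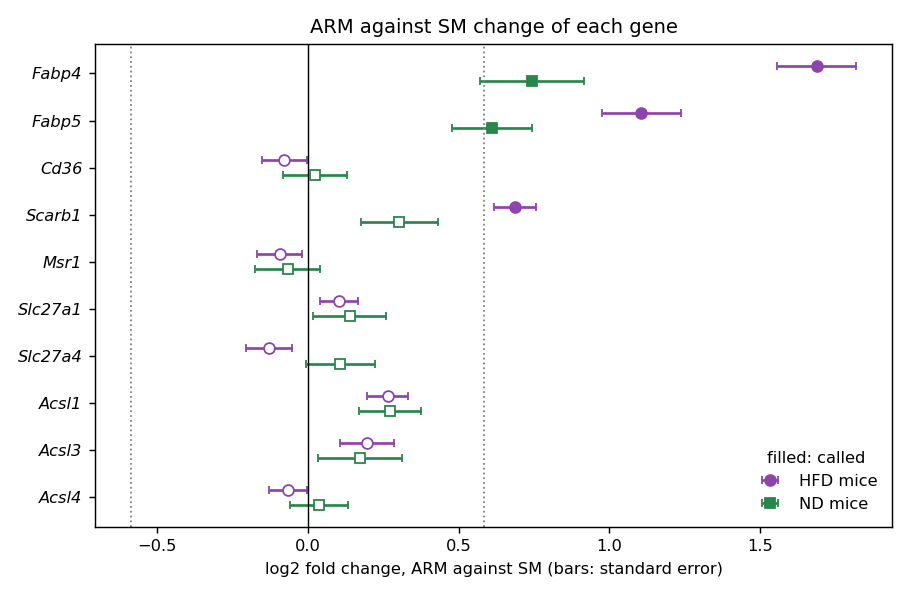
Log2 fold change of ARMs against SMs for each gene with its standard error, in HFD mice (circles) and ND mice (squares), from 2 libraries per group. Filled symbols are called, and dotted lines mark a fold of 1.5, which Fabp4 and Fabp5 pass in both diets and Scarb1 in HFD mice.

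The next question was whether the ARM against SM change differs between the diets. Tested in one fit of all 8 libraries, the change of Fabp4 was larger in HFD than in ND mice by 0.93 on the log2 scale (standard error 0.27, unadjusted p = 0.00413 and adjusted p = 0.263 from edgeR). Fabp5 differed by 0.48 (standard error 0.19, adjusted p = 0.538) and Scarb1 by 0.37 (standard error 0.15, adjusted p = 0.541). None of the 10 members passed by edgeR, against 0.165% of the 13358 genes tested, and 0 passed by DESeq2. At an unadjusted p under 0.05 there were 3 members, beside 7.61% of all genes. For Fabp4 the adjusted p ran from 0.00696 to 0.856 over 12 alternatives and the difference from 0.64 to 1.23. The differences of the other 7 members lay between -0.25 for Slc27a4 and 0.0067 for Acsl3.

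The levels of the diets can be set side by side only as values. Each diet has its own deposited table, and the gene length implied by counts and FPKM differed between the tables, by a ratio (HFD over ND) of 1.25 for Fabp4, 1.17 for Fabp5, 1.09 for Msr1, and between 0.996 and 1.07 for the other members. Diet and table therefore cannot be told apart. In ARMs, both HFD libraries were above both ND libraries in FPKM for 3 members (25.8% of 12343 genes) and below for 6 (46.0% of those genes). In SMs they were above for 1 member (24.6%) and below for 7 (49.5%).

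Slc27a1 and Msr1 had the widest gaps shared by both cell types. Mean FPKM of Slc27a1 in HFD libraries was 2.35 times that in ND libraries in ARMs and 2.34 times in SMs, and 2.42% and 2.58% of genes had a higher ratio. In CPM (counts scaled to library size, which use no gene length) the ratios were 2.43 and 2.48. The counts of Slc27a1 were not whole numbers in any HFD library and were whole in every ND library, and 1.43% of its 50-base stretches occurred in other genes. For Msr1 the FPKM ratio was 0.507 in ARMs and 0.515 in SMs, with a lower ratio in 2.12% and 2.60% of genes, and the CPM ratios were 0.553 and 0.561. Acsl4 followed in the same direction, at 0.696 in ARMs and 0.736 in SMs.
Fabp4 was the member whose diet ratio depended most on the cell type, at 2.31 in ARMs and 1.19 in SMs in FPKM, and at 2.86 and 1.48 in CPM. In SMs its HFD and ND libraries overlapped in FPKM and did not in CPM. Scarb1 had a ratio of 1.25 in ARMs and 0.936 in SMs (1.002 in CPM), and Fabp5 1.101 and 0.766. Cd36 (0.856 and 0.907), Acsl1 (0.880 and 0.869) and Acsl3 (0.818 and 0.784) were lower in HFD means by smaller margins. Slc27a4 had a ratio of 0.835 in ARMs and 0.962 in SMs, and in SMs the direction turned in TPM (1.013) and CPM (1.009). The median log2 ratio over all genes was -0.12 in ARMs and -0.15 in SMs in FPKM.

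**Figure D3:**
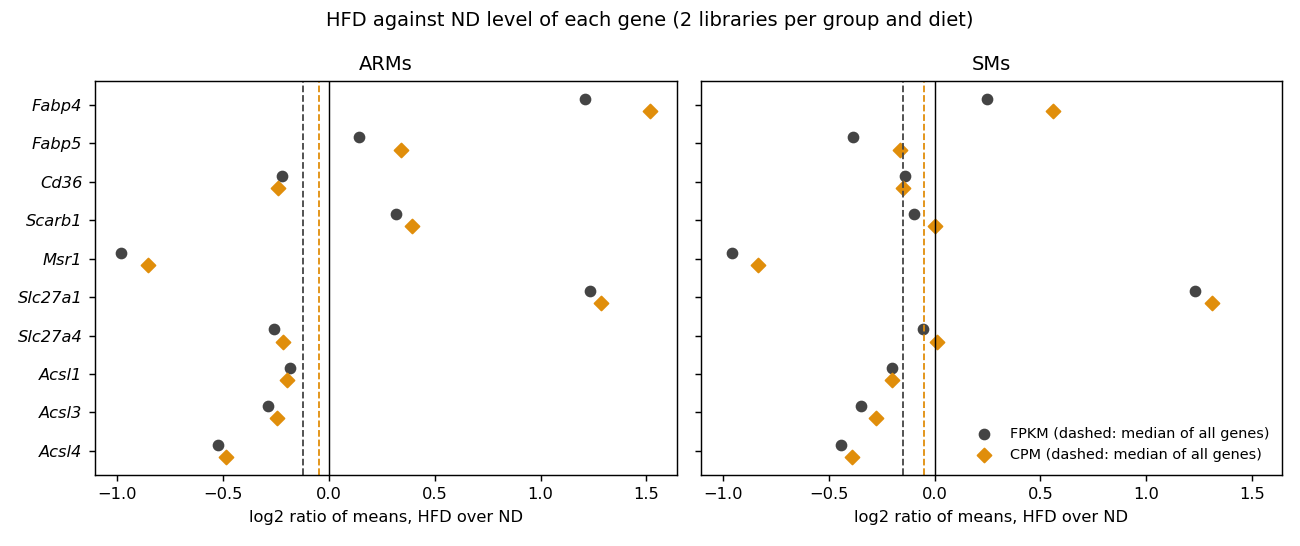
Log2 ratio of mean HFD to mean ND level for each gene in ARMs (left) and SMs (right), in FPKM (circles) and CPM (diamonds), with dashed lines at the median over all genes. Slc27a1 lies far to the right and Msr1 far to the left in both cell types, and Fabp4 lies far to the right in ARMs.

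Macrophage markers checked the label of the sorted cells. The 9 genes of that list, Adgre1, Itgam and Csf1r among them, summed to between 12515 and 15092 CPM in every library, and the ratio of ARMs to SMs was 0.974 in HFD mice and 1.02 in ND mice. Adipocyte markers moved with the members that rose. The 12 adipocyte markers summed to 369 and 384 CPM in HFD ARMs against 101 and 104 CPM in HFD SMs, and to 256 and 419 CPM in ND ARMs against 144 and 177 CPM in ND SMs. Of them 11 were called higher in ARMs of HFD mice and 8 of the 11 tested in ND mice, and none was at 0. Endothelial markers, 11 in all, summed to 176 and 156 CPM in HFD ARMs against 68.9 and 52.2 CPM in HFD SMs, with 10 called higher, and to 44.3 and 95.2 CPM in ND ARMs against 35.3 and 43.1 CPM in ND SMs, with 1 called. Replicate 2 of the ND ARMs, which was among the libraries on which the ND calls rested, had the larger adipocyte and endothelial sums of its pair. Its sums were also larger for fibroblasts (941 against 656 CPM), mesothelium (40.8 against 30.2 CPM), and pericytes and smooth muscle (40.6 against 26.9 CPM). They were larger for macrophages, B cells and neutrophils too, and smaller for lipid-associated macrophages (1505 against 1506 CPM) and T and NK cells (0.208 against 0.550 CPM). The other lists, as summed CPM of ARMs over SMs in HFD and ND mice, gave 1.58 and 2.999 for fibroblasts, 1.31 and 3.64 for mesothelium, 1.997 and 1.89 for pericytes and smooth muscle, 1.28 and 1.17 for lipid-associated macrophages, 1.09 and 1.12 for neutrophils, 1.06 and 1.04 for B cells, and 0.608 and 0.740 for T and NK cells, whose sums stayed at or under 1.60 CPM. Of 8 fibroblast markers, 5 were called higher in ARMs of HFD mice and 8 in ND mice. Of 5 mesothelial markers 0 and 4 were, and of 5 pericyte and smooth muscle markers 2 and 2. The part of these cells in the values of Fabp4, Fabp5 and Scarb1 was not tested, and in bulk RNA fewer cells of a type and less RNA per cell cannot be told apart. From coculture, the study reports that ARMs take up RNA of adipocytes. The part of such uptake in these values was not tested either.

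Adipoq, which encodes the adipocyte hormone adiponectin, gives a scale for the members. It had 15.8 and 18.8 CPM in HFD ARMs, 2.33 and 2.45 CPM in HFD SMs, 8.18 and 14.9 CPM in ND ARMs, and 3.17 and 5.10 CPM in ND SMs. Fabp4 was higher in ARMs than in SMs by 161 CPM in HFD mice and by 33.0 CPM in ND mice, which is 10.8 and 4.44 CPM for each CPM of Adipoq gained. For Fabp5 these were 1.20 and 1.22 CPM and for Scarb1 1.25 and 0.959 CPM. These figures hold for Adipoq only, since other adipocyte markers rose in other proportions in the 2 diets. Lep had 21.2 and 25.1 CPM in HFD ARMs against 2.65 and 3.20 CPM in HFD SMs. In ND mice it had 5.13 and 6.74 CPM against 2.09 and 3.15 CPM. Cfd had 14.9 and 14.4 CPM against 2.12 and 2.24 CPM in HFD mice, and 31.5 and 54.0 CPM against 13.9 and 14.0 CPM in ND mice. As values only, Fabp4 in SMs had 84.9 and 60.3 CPM in HFD mice and 39.4 and 57.8 CPM in ND mice. For Cd36 the mean of ARMs less that of SMs was -113 CPM in HFD mice and 40.4 CPM in ND mice, with overlapping libraries in both, and the HFD sign turned without replicate 1 of the HFD SMs (0.040 on the log2 scale). Cdh5, the endothelial cadherin, was higher in ARMs by 26.9 CPM in HFD mice and 6.81 CPM in ND mice.

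**Figure D4:**
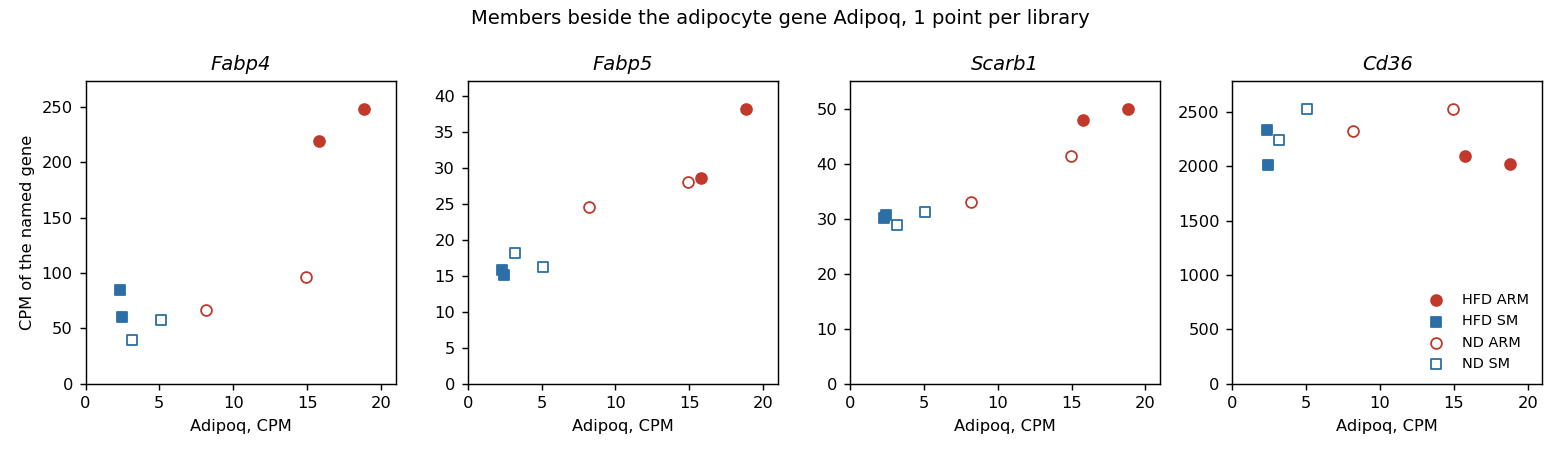
CPM of Fabp4, Fabp5, Scarb1 and Cd36 against CPM of the adipocyte gene Adipoq, with a point for each of the 8 libraries (circles ARMs, squares SMs, filled HFD, open ND). Within each diet the ARM libraries lie to the right of the SM libraries, and Fabp4, Fabp5 and Scarb1 lie higher in them, while Cd36 overlaps.

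The 6 lists of other genes of the pathway held 4 calls among 42 genes tested in HFD mice and 5 among 40 in ND mice, all higher in ARMs. Of the other FABPs, 6 of 8 were listed in HFD mice and 2 tested, and 3 were listed in ND mice and 0 tested. The highest of them, Fabp3, the heart-type carrier, averaged 1.88 FPKM in HFD and 1.105 FPKM in ND libraries, so Fabp4 and Fabp5 were the only family members above 2 FPKM in the mean of either diet. Of the other SLC27 transporters 2 of 4 were tested in each diet, and Slc27a3 was the highest at a mean of 1.26 FPKM in HFD and 1.005 FPKM in ND libraries. Neither list had a call by edgeR, a member with an unadjusted p under 0.05, or a call by DESeq2.

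Among other acyl-CoA synthetases 5 of 8 were tested in each diet and 0 were called by edgeR or DESeq2, with 2 at an unadjusted p under 0.05 in HFD mice and 1 in ND mice. Acsl5, an isoform linked to triglyceride synthesis, averaged 29.0 FPKM in HFD and 37.2 FPKM in ND libraries, above the 3 ACSL members described above in the mean over each diet, with log2 fold changes of 0.037 (standard error 0.075) and -0.053 (standard error 0.11). The 12 acyl-CoA binding proteins and thioesterases, led by Dbi, the main acyl-CoA binding protein, at a mean of 110 FPKM (HFD) and 127 FPKM (ND), had 0 calls by either tool, with 3 members at an unadjusted p under 0.05 in HFD mice and 0 in ND mice.

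Among 13 other scavenger receptors, 1 was higher in HFD ARMs and 3 in ND ARMs, and 0 were lower. The list's median log2 fold change was 0.17 in HFD and 0.47 in ND mice. Olr1, the lectin-like receptor for oxidized low-density lipoprotein, was higher in both diets, at 5.21 and 8.47 FPKM in HFD ARMs against 3.06 and 4.17 FPKM in HFD SMs and 8.11 and 9.74 FPKM in ND ARMs against 5.11 and 5.37 FPKM in ND SMs. Its log2 fold changes were 0.95 (standard error 0.20, adjusted p = 0.0139) and 0.78 (standard error 0.13, adjusted p = 0.00217). In ND mice Scara5, a ferritin receptor, rose by 1.21 (adjusted p = 0.0028) and Cxcl16, a membrane chemokine that binds oxidized lipoprotein, by 0.72 (adjusted p = 0.00925) on the log2 scale. In HFD mice the values of these were 0.39 (adjusted p = 0.118) and 0.51 (adjusted p = 0.000912), the latter under the fold threshold. Cd68, the endosomal glycoprotein used as a macrophage marker and the most abundant of the list, averaged 1159 FPKM in HFD and 1022 FPKM in ND libraries and did not pass. At an unadjusted p under 0.05, 5 of these receptors were higher and 3 lower in HFD ARMs, and 7 were higher and 0 lower in ND ARMs. DESeq2 called 0 in HFD mice and 2 in ND mice, all higher.

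Lipoprotein lipase and uptake genes had 3 of 8 members higher in HFD ARMs and 2 of 8 in ND ARMs, none lower, with median log2 fold changes of 0.42 and 0.25. Lpl, which encodes the lipase that frees fatty acids from lipoproteins, stood at 182 and 221 FPKM in HFD ARMs against 124 and 127 FPKM in HFD SMs (log2 fold change 0.65, standard error 0.082, adjusted p = 0.000885), and was 0.37 higher in ND ARMs (adjusted p = 0.0965), which did not pass. Gpihbp1, the capillary anchor of the lipase and one of the endothelial markers above, rose by 1.72 in HFD mice (standard error 0.19, adjusted p = 0.000484) and was at 1.60 in ND mice (adjusted p = 0.0628). Cav1, the caveolar coat protein abundant in endothelium and adipocytes, rose by 1.60 (standard error 0.11, adjusted p = 2.35e-05) and by 1.17 (standard error 0.19, adjusted p = 0.00198). The study takes CAV-1 as its marker of ARMs. By flow cytometry it reported the protein in most ARMs and few SMs of mice fed the HFD for a shorter time. Vldlr, a receptor for triglyceride-rich lipoproteins, was under 1 FPKM in every library and was called in ND mice alone, at 0.999 (adjusted p = 0.0475). DESeq2 called 3 of the list in HFD mice and 0 in ND mice. At an unadjusted p under 0.05, 6 genes of the list were higher in HFD ARMs and 4 in ND ARMs, and 0 were lower in either.

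The genes most like each called member were found by Pearson's r over the 8 libraries on log2 CPM centred within each diet, among 9777 genes. These are descriptions, since the points share libraries and the ARM against SM step. For Fabp4 they included Thrsp (r = 0.986), a lipogenic gene that is among the adipocyte markers above, and Pck1 (r = 0.985), the glyceroneogenic enzyme. For Fabp5 they were Mmp12 (r = 0.992), the macrophage elastase, Lgals3 (r = 0.986), a galectin among the lipid-associated macrophage markers, and Alas1 (r = 0.984), the entry enzyme of heme synthesis. For Scarb1 they were Serpinf1 (r = 0.996), Cdo1 (r = 0.993) and Pira6 (r = 0.992). On the log2 scale Mmp12 itself was 1.23 (HFD) and 0.71 (ND) higher in ARMs than in SMs, Lgals3 was 0.57 and 0.37 higher, and Thrsp was 2.43 and 1.01 higher. Between the members, Fabp4 had r = 0.927 with Fabp5 and r = 0.971 with Scarb1, and r = 0.055 with Cd36.

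Promoters of 6 members (Cd36, Slc27a1, Slc27a4, Acsl1, Acsl3 and Acsl4) were found in the RefSeq table for GRCm38.p6, 9 windows in all, each from 250 bases before to 50 bases after a start. Fabp4, Fabp5, Scarb1 and Msr1 had no entry there. On either strand, 0 of the 9 windows held AGGTCANAGGTCA, a direct repeat bound by PPAR with RXR, where N is any base. The AP-1 motif TGACTCA was found in 0 of them. Likewise 0 held the TATA box letters TATAAA. Over all 32851 windows of that length these motifs occur in 0.0396%, 5.20% and 13.6%, respectively. At such rates 0 of 9 windows says little, and none of the 9 belonged to a called member.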

How the data were processed

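RNA-seq of ARMs and SMs was measured in 8 libraries, sequenced on Illumina instruments, with total counts from 14508824 to 19040133. The authors deposited, for each diet, 1 table of estimated counts, FPKM and TPM per gene and library. FPKM and TPM are as the authors normalized them. The labels name mm10. The aligner, the counter and its version are not given in the sources used here. The counts were not whole for 32.3% to 32.9% of genes in HFD libraries and 8.55% to 9.36% in ND libraries.

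Counts were rounded and fitted for each diet with edgeR 4.0.16 in R 4.3.3 (TMM factors from 0.989 to 1.02, filterByExpr, quasi-likelihood test, Benjamini-Hochberg adjustment over all genes). The difference between diets was tested in one fit of 8 libraries. The biological coefficient of variation was 5.55% (HFD) and 8.61% (ND). The labels do not say whether the libraries of a group came from separate sorts, so p-values measure only the spread between these libraries, which exceeded sampling noise (mean chi-square for a gene 3.60 to 8.22, against 1). With 2 libraries against 2, an exact test cannot give a two-sided p under 0.333. Alternatives were DESeq2 1.42.0, limma 3.58.1 on log2(FPKM + 1) and log2(FPKM + 0.1), library totals, other filters, 1 fit of all libraries, the threshold of the methods (log2 fold change over 0.6, unadjusted p under 0.05), the replicate number as a block, and each library left out. The scripts were tested on simulated data.

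Named genes were all 10 members, genes called and the highest gene in each pathway list, the 3 genes most like each called member (mean CPM of at least 5, prior count 2), and Adipoq and Cdh5. Of these, 1 gene is not reported here. Members and lists were chosen with earlier results of these data known. Genes in the marker lists and those sharing sequence with a member were named after their values were seen. Gene positions and transcripts came from GENCODE M21. Coding sequences were aligned with Biopython 1.88, and figures drawn with matplotlib 3.10.9 in Python 3.11.15. Columns of the authors' group averages were not used.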

Additional observations from a re-analysis of the deposited data

How the results depend on the processing

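In HFD mice 2 to 3 members were called under every alternative except limma on unfiltered log2(FPKM + 1) values, which called 0, and leaving out a library gave 3 each time. In ND mice, against 2 members called by edgeR, DESeq2 called 1 (Fabp5), limma on log2(FPKM + 1) and on log2(FPKM + 0.1) called 1 each, limma without a filter called 0, and leaving out a library gave 0 to 2. The cause was not tested. For the difference between diets, DESeq2, library totals, no filter and leaving out a library each gave 0. With the replicate number as a block, 1 member passed, Fabp4 (difference 0.94, adjusted p = 0.00696), and 3 members stayed called in HFD mice and 2 in ND mice. Replicate 1 less replicate 2 correlated between ARMs and SMs at -0.028 (HFD) and 0.22 (ND), with 2 pairs in each diet. The labels do not say whether ARMs and SMs of the same number came from the same mice, and these correlations cannot decide it. The 9 members with no overlap between diets in ARMs were 9 in TPM and 10 in CPM, and the 8 in SMs were 6 and 7. Shares over all genes were taken in FPKM only. There, 25.8% of genes lay above and 46.0% below without overlap in ARMs, and 24.6% and 49.5% in SMs. Of 280 values of single members, 257 kept their direction and their side of the threshold, 13 lost a call and 10 changed sign. All 10 belonged to members that were not called, with a library left out. Over the libraries left out, log2 fold changes ran from -0.18 to 0.040 for Cd36 and from -0.18 to 0.0064 for Msr1 in HFD mice, and from -0.071 to 0.12 for Cd36, -0.19 to 0.040 for Msr1, -0.014 to 0.31 for Slc27a1 and -0.015 to 0.084 for Acsl4 in ND mice. Depth did not limit the members, which had at least 258 counts in every library. The precision was limited by 2 libraries per group, and counts without molecular identifiers allow for counting error only.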
